A study of Mus musculus with 12 samples.

Results

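Net1, Nedd9, Filip1l, Cttnbp2nl, Klhdc8a, Proser2 and Chd5 are 7 genes of the mouse thoracic aorta that were selected on lower counts in libraries labelled knockout (KO) than in wild-type (WT) libraries. All 7 were found by symbol among 27933 genes of the count table, and all 7 passed the filter on low counts with 14621 genes in all. Because lower KO values chose them, their KO against WT values are given as a description, with no test. RNA was sequenced in 12 libraries, 3 in each of 4 groups, from C57BL/6J mice aged 8 months. The groups were KO nicotine (libraries 3, 4 and 5), KO air (1, 2 and 7), WT nicotine (6, 11 and 12) and WT air (8, 9 and 10). Here KO stands for alpha7-nAChR knockout, a loss of the alpha7 nicotinic acetylcholine receptor encoded by Chrna7, and mice of both genotypes breathed nicotine vapor or plain room air over 12 weeks, starting at 5 months of age. The labels give neither the deleted part of the gene nor whether each library is 1 animal, so p-values measure the spread between libraries, which may be technical.

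The aortic wall is made mainly of smooth muscle cells, whose tension depends on actin, on myosin and on the adhesions that anchor them. The small GTPase RhoA drives actin assembly and contraction when an exchange factor loads it with GTP, and scaffold proteins of the Cas family pass signals from integrins at adhesions to the cytoskeleton. Net1 encodes a RhoA exchange factor and Nedd9 a Cas-family scaffold. Filip1l encodes a relative of the filamin A-interacting protein, and human FILIP1L has been described as an inhibitor of cell migration. Cttnbp2nl encodes a relative of the cortactin-binding protein CTTNBP2, and its human protein is a partner of the STRIPAK phosphatase complex. Klhdc8a encodes a kelch-repeat protein and Proser2 a proline- and serine-rich protein, and for neither is a cytoskeletal role stated here. Chd5 encodes a nuclear chromatin remodeller best known from brain and testis, so the word cytoskeletal describes part of this group and not Chd5.

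The genes lie on 6 mouse chromosomes, Net1 and Nedd9 on chromosome 13, Filip1l on 16, Cttnbp2nl on 3, Klhdc8a on 1, Proser2 on 2 and Chd5 on 4, and none is on chromosome 7 with Chrna7. RefSeq (GRCm38.p6, a build other than the mm9 used for the counts) lists 11 transcription start sites for them. The 250 bases before a start site are shown for the 4 genes with the highest nicotine against air values averaged over both genotypes, since these are the stretches where shared motifs could be looked for. Capitals mark the CArG box, the motif bound by serum response factor (SRF), and CCAAT on either strand (ATTGG on the strand shown). Net1, Filip1l and Cttnbp2nl have 2 start sites each. For these genes the window shown held a motif marked in capitals, and the window not shown held none. Net1 is given at chr13:3918221-3918470 (minus strand), Nedd9 at chr13:41359002-41359251 (minus strand), Filip1l at chr16:57548992-57549241 (plus strand) and Cttnbp2nl at chr3:105052954-105053203 (minus strand).
Net1: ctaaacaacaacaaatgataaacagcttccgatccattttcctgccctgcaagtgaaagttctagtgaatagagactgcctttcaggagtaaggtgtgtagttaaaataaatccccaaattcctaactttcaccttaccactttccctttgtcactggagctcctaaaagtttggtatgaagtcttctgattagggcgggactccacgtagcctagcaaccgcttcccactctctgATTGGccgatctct
Nedd9: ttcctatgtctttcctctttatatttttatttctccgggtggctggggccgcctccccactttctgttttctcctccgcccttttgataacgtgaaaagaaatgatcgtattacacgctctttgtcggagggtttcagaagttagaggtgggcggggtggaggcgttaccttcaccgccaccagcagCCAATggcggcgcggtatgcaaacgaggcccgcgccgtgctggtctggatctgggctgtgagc
Filip1l: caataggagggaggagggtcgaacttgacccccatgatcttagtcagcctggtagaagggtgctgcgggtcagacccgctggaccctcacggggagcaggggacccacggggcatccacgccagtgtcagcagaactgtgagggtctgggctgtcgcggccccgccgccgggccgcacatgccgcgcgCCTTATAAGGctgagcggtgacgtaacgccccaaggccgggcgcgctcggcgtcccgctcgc
Cttnbp2nl: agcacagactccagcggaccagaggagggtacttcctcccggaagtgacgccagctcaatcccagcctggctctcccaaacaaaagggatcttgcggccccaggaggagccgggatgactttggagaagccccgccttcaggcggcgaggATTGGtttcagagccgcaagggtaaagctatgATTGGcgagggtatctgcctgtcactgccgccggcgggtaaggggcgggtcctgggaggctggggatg
The Filip1l window held the palindrome CCTTATAAGG, a CArG box, from base -62 to base -53 counted from the start site. No other window of the 7 genes held one, and 1.47% of 32851 RefSeq windows of the same length did. CCAAT was found in windows of 5 of the 7 genes (5 of 11 windows), and in 33.8% of all windows. GGGCGG, the GC box, was found in windows of 6 of the 7 genes (8 of 11 windows) and in 32.7% of all windows. The 2 windows of Chd5 nearly coincide. Median GC content was 57.6% in the 11 windows and 52.4% in all windows, and GGGCGG is itself made of G and C. TATAAA, the TATA box, was found in 1 of the 11 windows and in 12.4% of all windows. TGANTCA (AP-1), GGAATG (TEAD) and TGACGTCA (the cyclic AMP response element) were found on neither strand of any window of the 7 genes, and in 6.75, 12.6 and 1.55% of all windows. A gene with several start sites has more windows in which to find a motif, and Net1, Filip1l, Cttnbp2nl and Chd5 each had 2. These matches describe letters and not bound sites. Counts were made per gene, so the start sites of a gene cannot be told apart in the values that follow.

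Library totals ran from 10240031 to 12628323 counts. Chrna7 itself had 8 to 28 counts in KO libraries and 9 to 37 in WT libraries, so the counts do not check the genotype label, and a deletion of part of the gene need not remove reads from the rest. All 14 smooth muscle and all 14 endothelial markers had counts in every group. KO libraries carry the numbers 1 to 5 and 7 and WT libraries 6 and 8 to 12. The labels do not explain these numbers, and an effect of handling order cannot be told apart from genotype. In a whole tissue, fewer cells of a type and less RNA per cell cannot be told apart.

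Net1 had the highest library-scaled counts (CPM) in WT nicotine and the lowest in KO air. It had 480, 397 and 410 CPM in KO nicotine libraries 3, 4 and 5, against 605, 593 and 855 CPM in WT nicotine libraries 6, 11 and 12. In air it had 326, 303 and 286 CPM in KO libraries 1, 2 and 7, against 460, 486 and 622 CPM in WT libraries 8, 9 and 10. KO and WT did not overlap within either exposure, but KO nicotine 3 lay above WT air 8, so the 6 KO libraries together overlapped the 6 WT libraries. Net1 thus averaged 367 ± 74.7 CPM in KO and 603 ± 140 CPM in WT (SD, n = 6 each), and its log2 fold change was -0.72 ± 0.12 (SE). It became -0.47 ± 0.14 with the mean log2 CPM of glucocorticoid-responsive genes as a covariate, chosen after the data were seen. Its values within nicotine and within air were alike, -0.67 ± 0.17 and -0.78 ± 0.17.

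Nedd9 followed nearly the same order as Net1. Its levels were 117, 107 and 115 CPM in KO nicotine, against 158, 178 and 196 CPM in WT nicotine. They were 108, 74.8 and 97.5 CPM in KO air, against 133, 129 and 151 CPM in WT air. Every KO library lay below every WT library. Exons of Nedd9, Cttnbp2nl and Chd5 overlap an opposite-strand gene in GENCODE M21, and the libraries do not mark strand, so reads of the overlapping genes cannot be told apart. Nedd9 averaged 103 ± 15.5 CPM in KO and 158 ± 25.9 CPM in WT (SD, n = 6 each), and its log2 fold change was -0.65 ± 0.14 in nicotine and -0.56 ± 0.14 in air (SE).

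Filip1l and Cttnbp2nl were separated by genotype mainly in nicotine. Filip1l had 495, 447 and 597 CPM in KO nicotine, against 789, 1071 and 949 CPM in WT nicotine. In air the gap was narrower, with 576, 505 and 546 CPM in KO, against 627, 703 and 708 CPM in WT. The groups did not overlap in either exposure, and the log2 fold change was -0.87 ± 0.15 in nicotine and -0.32 ± 0.15 in air (SE). Cttnbp2nl had 86.9, 74.9 and 94.9 CPM in KO nicotine, against 159, 161 and 162 CPM in WT nicotine. In air it had 112, 75.8 and 89.2 CPM in KO, against 108, 99.9 and 104 CPM in WT, so KO air 1 lay above all 3 WT air libraries. The Cttnbp2nl log2 fold change was -0.91 ± 0.14 in nicotine and -0.17 ± 0.14 in air, and the value in air ran from -0.33 without KO air 1 to -0.05 without KO air 2.

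Klhdc8a and Proser2, the genes with the fewest counts, were further apart in air than in nicotine. Klhdc8a had 4.48, 3.71 and 3.56 CPM in KO nicotine, against 7.17, 6.11 and 4.81 CPM in WT nicotine. In air it had 2.38, 2.99 and 3.46 CPM in KO, against 6.52, 7.57 and 6.04 CPM in WT. Raw counts behind these values ran from 28 to 49 in KO libraries and from 59 to 92 in WT libraries, and no KO library reached a WT library. Proser2 had 6.397, 5.24 and 6.06 CPM in KO nicotine, against 7.37, 7.71 and 7.75 CPM in WT nicotine. Its air values were 3.48, 6.15 and 4.04 CPM in KO, against 9.04, 9.96 and 9.27 CPM in WT, where KO air 2 stood apart from the other KO air libraries but below WT. The log2 fold change in nicotine and in air was -0.62 ± 0.25 and -1.19 ± 0.26 for Klhdc8a, and -0.37 ± 0.23 and -1.05 ± 0.23 for Proser2 (SE).

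Chd5 differed by genotype about equally in both exposures. It had 19.6, 17.3 and 16.01 CPM in KO nicotine, against 34.7, 25.4 and 29.1 CPM in WT nicotine. It had 11.3, 17.4 and 22.1 CPM in KO air, against 32.8, 27.1 and 29.7 CPM in WT air. The highest KO library, KO air 7, lay below the lowest WT library, WT nicotine 11. The mean was 17.3 ± 3.64 CPM in KO and 29.8 ± 3.47 CPM in WT (SD, n = 6 each), and the log2 fold change was -0.75 ± 0.21 in nicotine and -0.82 ± 0.21 in air (SE).

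**Figure D1:**
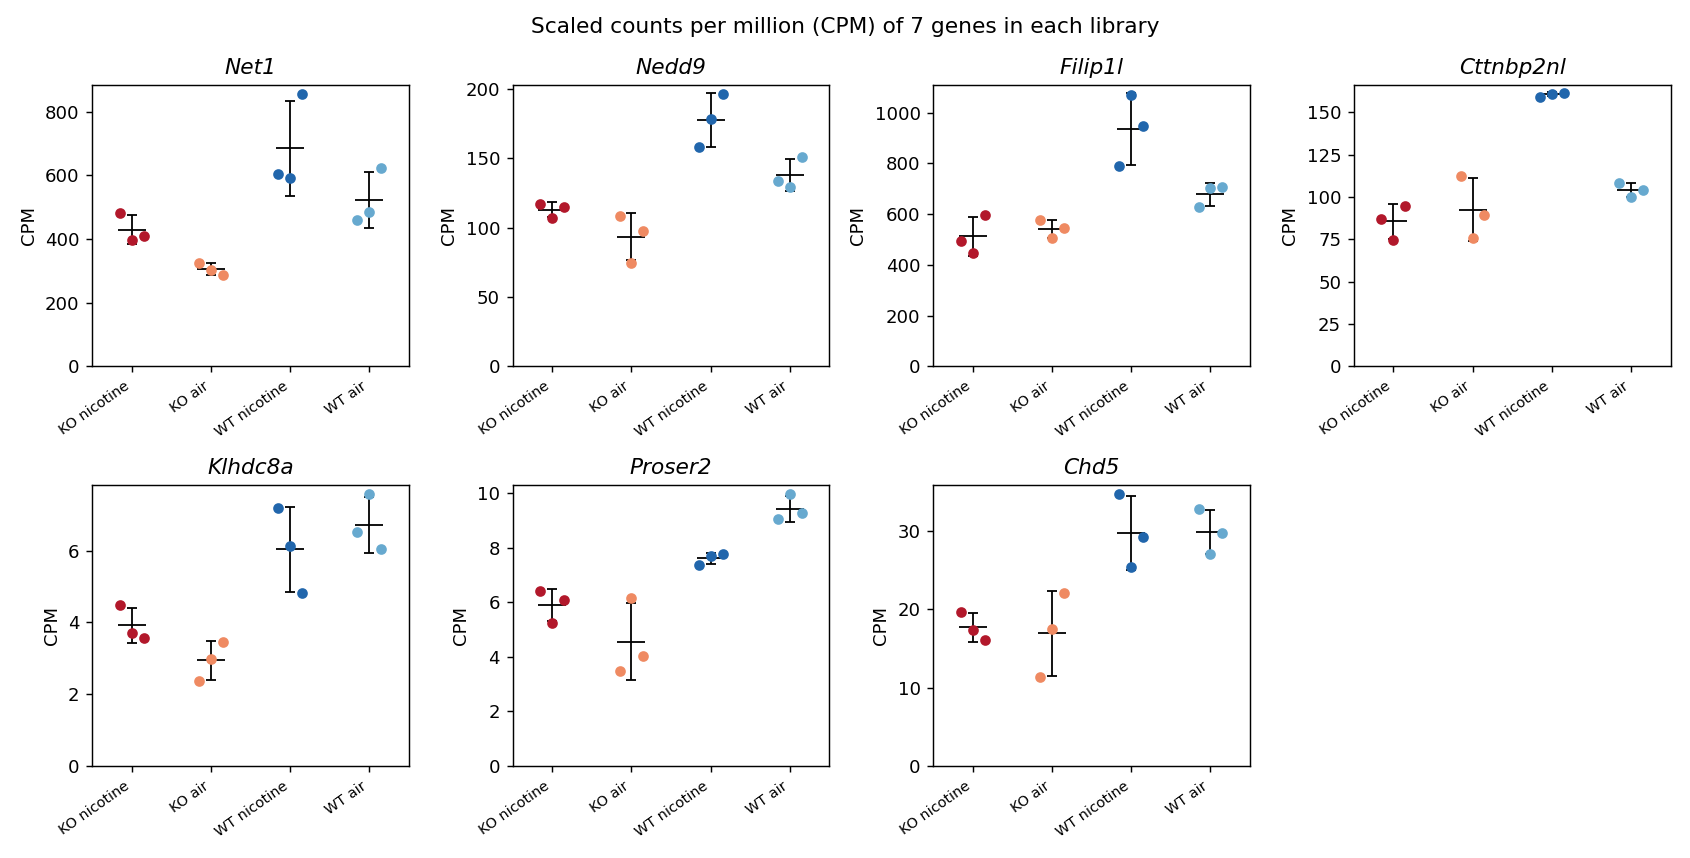
Library-scaled CPM (vertical axes, from 0, each gene on its own scale) of the 7 genes in KO nicotine, KO air, WT nicotine and WT air. Points are libraries and the black marks are the mean ± SD (n = 3). Cttnbp2nl stood at 159 to 162 CPM in WT nicotine, and its KO air and WT air points overlap.

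Averaged over exposures, the 7 log2 fold changes of KO against WT ran from -0.90 (Klhdc8a) to -0.54 (Cttnbp2nl), with a median of -0.71, where the median of all 14621 genes was 0.01. Every KO library lay below every WT library for 5 of the 7 genes, all but Net1 and Cttnbp2nl, and for 0.267% of all genes tested. Within nicotine this held for 7 of 7 genes (5.62% of all genes, with 5.78% the other way), and within air for 6 of 7 (6.07%, with 5.74% the other way). These counts follow from how the genes were chosen, and nothing is read from them. EdgeR's quasi-likelihood test with Benjamini-Hochberg adjustment called 0 of 14621 genes (0%) between KO and WT averaged over exposures, with 1229 genes at an unadjusted p under 0.05. DESeq2 called 115 genes there and limma voom 0. In air edgeR called 0 genes (637 at an unadjusted p under 0.05, 13 by DESeq2 and 0 by limma voom), and in nicotine it called 1 gene as lower (0.00684%), Rcan1, which encodes a calcineurin inhibitor and is none of the 7.

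**Figure D2:**
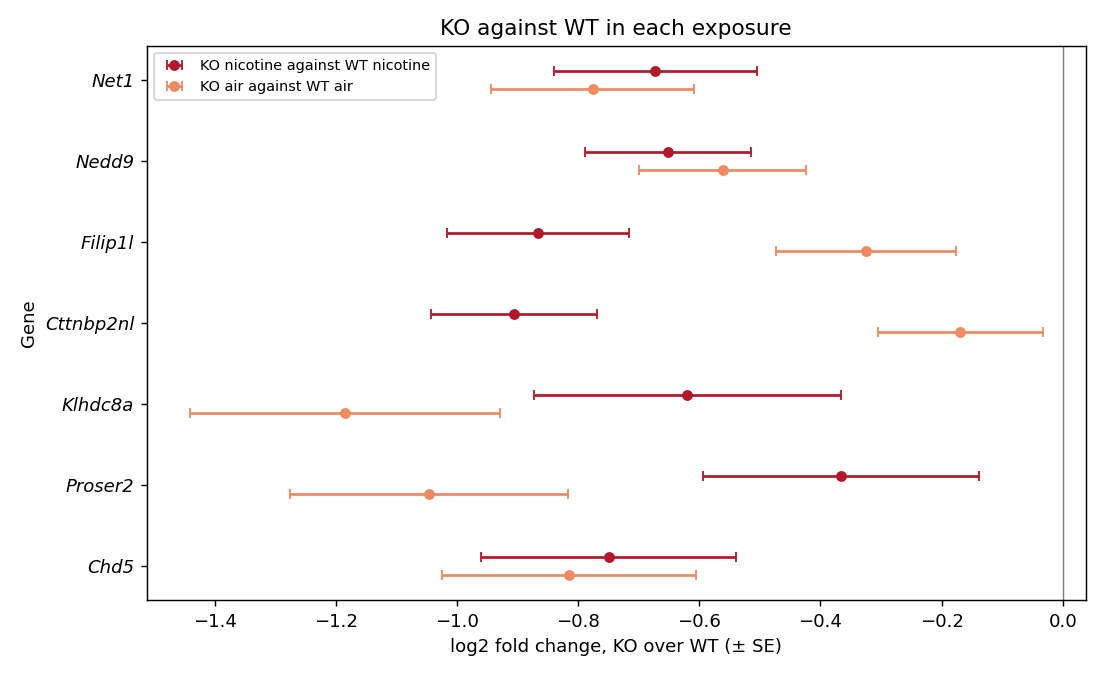
Log2 fold change of KO over WT (horizontal axis, points with SE) for the 7 genes (vertical axis), within nicotine and within air. Filip1l (-0.87 and -0.32) and Cttnbp2nl (-0.91 and -0.17) lie further from 0 in nicotine, and Klhdc8a (-0.62 and -1.19) and Proser2 (-0.37 and -1.05) in air.

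The estimate of the nicotine effect averaged over both genotypes is independent of any KO against WT difference in a design with equal groups. It could therefore be tested for these genes. The p-values rest on a spread per gene that both contrasts share, so the choice of genes can make them too small. None of the 7 passed, and edgeR called 0% of all genes (0 of 14621, with 1600 at an unadjusted p under 0.05, 96 by DESeq2 and 0 by limma voom). Net1 had the highest value, 0.44 ± 0.12 (edgeR adjusted p = 0.313, log2 fold change ± SE). DESeq2 gave Net1 0.45 and an adjusted p of 0.0423, a call that the edgeR alternatives did not share, and with the glucocorticoid covariate its edgeR value was 0.10. Nedd9 was at 0.32 ± 0.10 (edgeR adjusted p = 0.336) and Cttnbp2nl at 0.26 ± 0.10 (0.385). Filip1l was at 0.19 ± 0.11 (0.514) and Klhdc8a at 0.13 ± 0.18 (0.800). Proser2 was at 0.03 ± 0.16 (0.952) and Chd5 at 0.03 ± 0.15 (0.957). All 7 values were above 0, with a median of 0.19 against 0.01 for all genes, of which 48.6% were below 0.

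Within each genotype the genes split further. These values share libraries with the contrast that chose the genes, so they carry no test. In KO the nicotine over air log2 fold change was 0.49 ± 0.17 for Net1 and 0.27 ± 0.14 for Nedd9, and in WT it was 0.39 ± 0.17 and 0.36 ± 0.14 (SE). Both genes had values above 0 in either genotype, Net1 without overlap in KO and Nedd9 without overlap in WT. Filip1l was at -0.08 ± 0.15 in KO and 0.46 ± 0.15 in WT, and Cttnbp2nl at -0.11 ± 0.14 in KO and 0.63 ± 0.14 in WT. For both, every WT nicotine library lay above every WT air library, while the KO groups overlapped. Klhdc8a and Proser2 were above 0 in KO, at 0.41 ± 0.26 and 0.37 ± 0.23, and below 0 in WT, at -0.16 ± 0.25 and -0.31 ± 0.22. The WT value of Klhdc8a was smaller than its SE, and its WT nicotine and WT air libraries overlapped. Every WT nicotine library lay below every WT air library for Proser2, and Klhdc8a was higher without overlap in KO nicotine. Chd5 was near 0, at 0.06 ± 0.21 in KO and -0.01 ± 0.21 in WT. Nicotine lay wholly above air in 2 of 7 genes in KO (5.1% of all genes) and in 3 of 7 in WT (7.12%), and wholly below in 0 of 7 in KO (5.53%) and 1 of 7 in WT (6.05%). Over all genes edgeR called 0 between nicotine and air in KO (669 at an unadjusted p under 0.05) and 3 in WT (0.0205%).

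The nicotine effect in KO minus that in WT was -0.74 ± 0.19 for Cttnbp2nl and -0.54 ± 0.21 for Filip1l (SE), and 0.68 ± 0.32 for Proser2 and 0.57 ± 0.36 for Klhdc8a. It was 0.10 ± 0.24 for Net1, -0.09 ± 0.19 for Nedd9 and 0.07 ± 0.30 for Chd5. Over all genes edgeR called 0 such differences (0%), with 647 at an unadjusted p under 0.05. The authors' deposited tables give nicotine against air values of -0.11 (SE 0.19) in KO and 0.63 (SE 0.14) in WT for Cttnbp2nl. For Filip1l the authors' deposited tables give -0.08 (SE 0.16) in KO and 0.46 (SE 0.17) in WT.

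**Figure D3:**
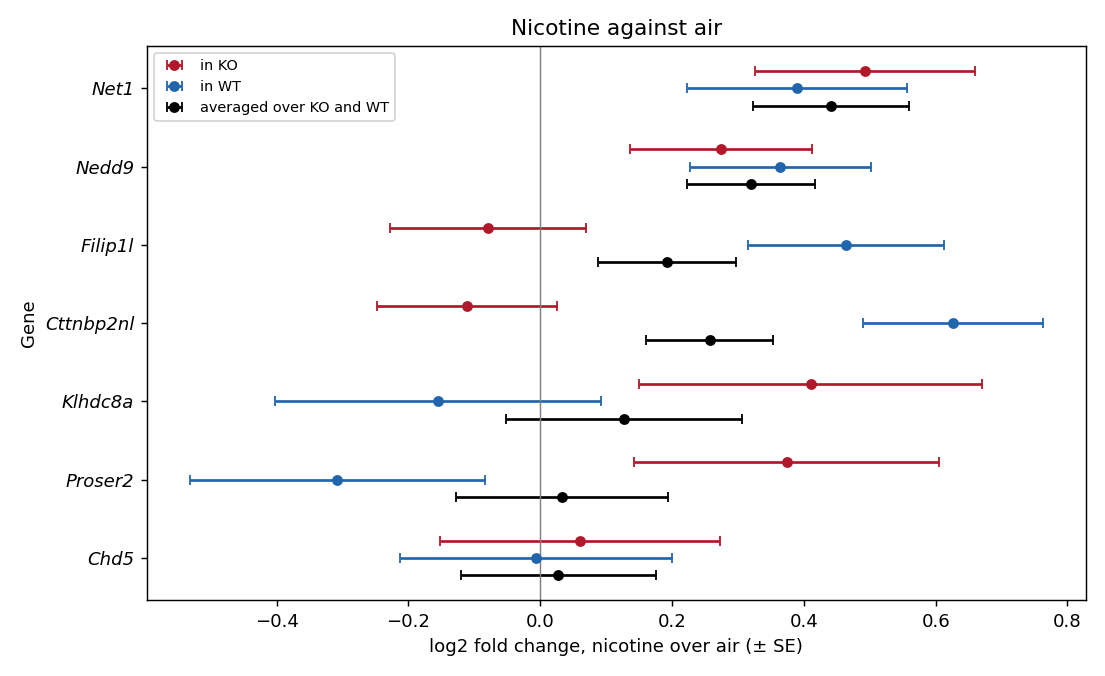
Log2 fold change of nicotine over air (horizontal axis, points with SE) for the 7 genes (vertical axis), in KO, in WT and averaged over both. Filip1l and Cttnbp2nl are above 0 in WT (0.46 and 0.63) and near 0 in KO. Klhdc8a and Proser2 are below 0 in WT (-0.16 and -0.31), where the value of Klhdc8a is smaller than its SE.

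How the genes varied together from library to library was compared within each genotype, over 6 libraries, since the choice of genes separates KO from WT. Pearson r was above 0 for 11 of 21 pairs in KO (median 0.05, from -0.63 to 0.81) and for 9 of 21 pairs in WT (median -0.19, from -0.97 to 0.90). By exact permutation of pairings (two-sided), 0 pairs in KO and 5 in WT had an unadjusted p under 0.05, and 0 of all 42 passed after Benjamini-Hochberg adjustment (lowest adjusted p = 0.321). Nicotine and air libraries of 1 genotype stand apart for some of these genes, among them Cttnbp2nl, Filip1l, Nedd9 and Proser2 in WT and Net1 in KO. A value pooled over exposures can then rest on the exposure groups, so no single pair is given. Each exposure within a genotype holds 3 libraries, too few for a value of its own.

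The closest relatives of the 7 genes were read for comparison, in the whole table's fit. Of 11 relatives tested, 4 were below 0 between KO and WT averaged over exposures, with a median of 0.02, and edgeR called 0. Arhgef3, which encodes the RhoA exchange factor most like Net1, was at 0.02 ± 0.11 (log2 fold change ± SE). The other Cas-family genes Bcar1, Efs and Cass4 were at 0.02 ± 0.11, 0.09 ± 0.15 and 0.06 ± 0.41. Filip1 was the relative with the lowest value, -0.34 ± 0.14 (edgeR adjusted p = 0.553). It averaged 138 ± 48.6 CPM in KO nicotine and 166 ± 16.7 CPM in KO air, against 171 ± 20.5 CPM in WT nicotine and 213 ± 17.4 CPM in WT air (SD, n = 3 each), and its nicotine means were below its air means in both genotypes. Cttnbp2 was at 0.10 ± 0.23, Klhdc8b at 0.11 ± 0.14, Proser1 at -0.08 ± 0.12 and Proser3 at -0.14 ± 0.23. Chd3 and Chd4, which encode NuRD remodellers, were at -0.08 ± 0.11 and 0.04 ± 0.08.

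**Figure D4:**
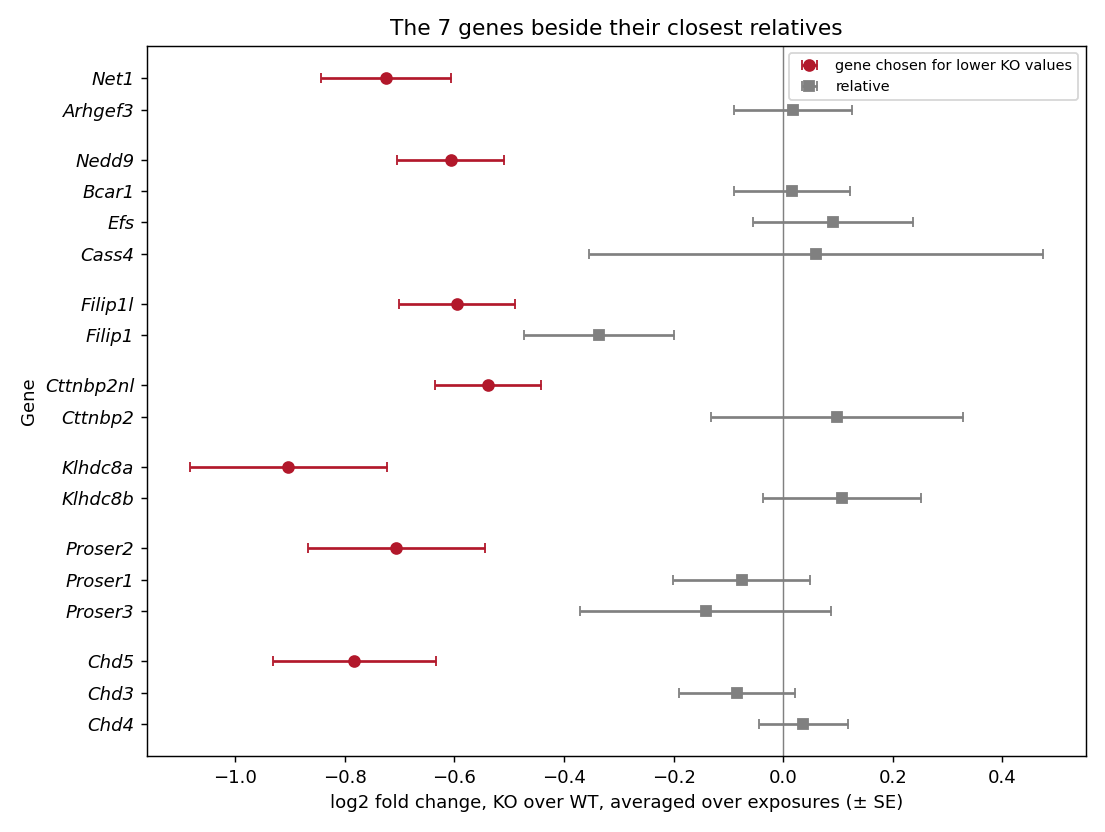
Log2 fold change of KO over WT averaged over exposures (horizontal axis, points with SE) for the 7 genes and, in grey squares, 11 relatives grouped under each (vertical axis). The 7 genes lie between -0.90 and -0.54 because they were chosen for low KO values, and the relatives between -0.34 (Filip1) and 0.11 (Klhdc8b).

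Genes of the pathways around these 7 were also read, and edgeR called none of them between KO and WT, averaged or within either exposure, or with nicotine averaged over genotypes. Averaged over exposures, 15 of 23 RhoA, ROCK and formin effectors were below 0 in KO against WT (median -0.06). Over all genes 48% were below 0. Of 21 Cas-family scaffold partners, 14 were below 0 (median -0.07), the lowest being Bcar3, whose protein binds Cas scaffolds, at -0.45 ± 0.11 (SE, edgeR adjusted p = 0.229). For STRIPAK and cortactin genes it was 12 of 19 (median -0.06), for CHD remodellers and NuRD subunits 14 of 19 (median -0.06), and for KLHDC kelch-domain genes 4 of 8 (median -0.02). SRF and MRTF cytoskeletal targets had 22 of 23 members below 0, with a median of -0.12. Their nicotine over air values averaged over genotypes were also mostly below 0, in 19 of 23 (median -0.30). In WT 17 of 23 were below 0, and in KO 18 of 23. Filip1l stood at 0.19 averaged over genotypes, with 0.46 in WT and -0.08 in KO. YAP and TEAD targets had 12 of 14 below 0 in KO against WT (median -0.19), the lowest being Ctgf, which encodes a matrix-associated growth factor regulator, at -0.74 ± 0.18 (SE, edgeR adjusted p = 0.243).

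Response lists were also uneven between groups, and edgeR called 1 of their genes, a glucocorticoid-responsive one that was higher in WT nicotine than in WT air. Glucocorticoid-responsive genes were below 0 in KO against WT in 14 of 15 averaged over exposures (median -0.44). Their summed CPM ran from 1698 to 2345 in KO nicotine and from 1497 to 1576 in KO air, against 2626 to 2892 in WT nicotine and 1377 to 2077 in WT air. All 24 immediate early genes, the first to respond to a stimulus, were below 0 in KO against WT in nicotine (median -0.68), but 10 of 24 were in air (median 0.10). Their summed CPM ran from 2301 to 4443 in KO nicotine and from 2202 to 4446 in KO air, against 3770 to 6207 in WT nicotine and 1761 to 4365 in WT air. YAP and TEAD targets summed to 3783 to 4830 CPM in KO nicotine and 3090 to 4965 CPM in KO air, against 6244 to 7187 CPM in WT nicotine and 4237 to 5515 CPM in WT air. The sums of the glucocorticoid and YAP lists were higher in every WT nicotine library than in any other library. Filip1l, Cttnbp2nl and Nedd9 were also highest in WT nicotine, as was Net1 by its mean. The means of Klhdc8a (6.03 CPM in WT nicotine and 6.71 in WT air), Proser2 (7.61 and 9.42) and Chd5 (29.7 and 29.8) were highest in WT air. With the immediate early score as a covariate, the KO against WT values in nicotine were nearer 0 for Cttnbp2nl (-0.76), Filip1l (-0.72), Nedd9 (-0.52) and Net1 (-0.61), and further from 0 for Klhdc8a (-0.69), Proser2 (-0.49) and Chd5 (-0.90). With the glucocorticoid score they were further from 0 for Cttnbp2nl (-0.96), Filip1l (-0.96) and Klhdc8a (-0.69), and nearer 0 for Net1 (-0.37), Nedd9 (-0.54) and Chd5 (-0.58). Proser2 was at -0.36 with it. The part of the YAP and TEAD targets in these values was not tested.

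**Figure D5:**
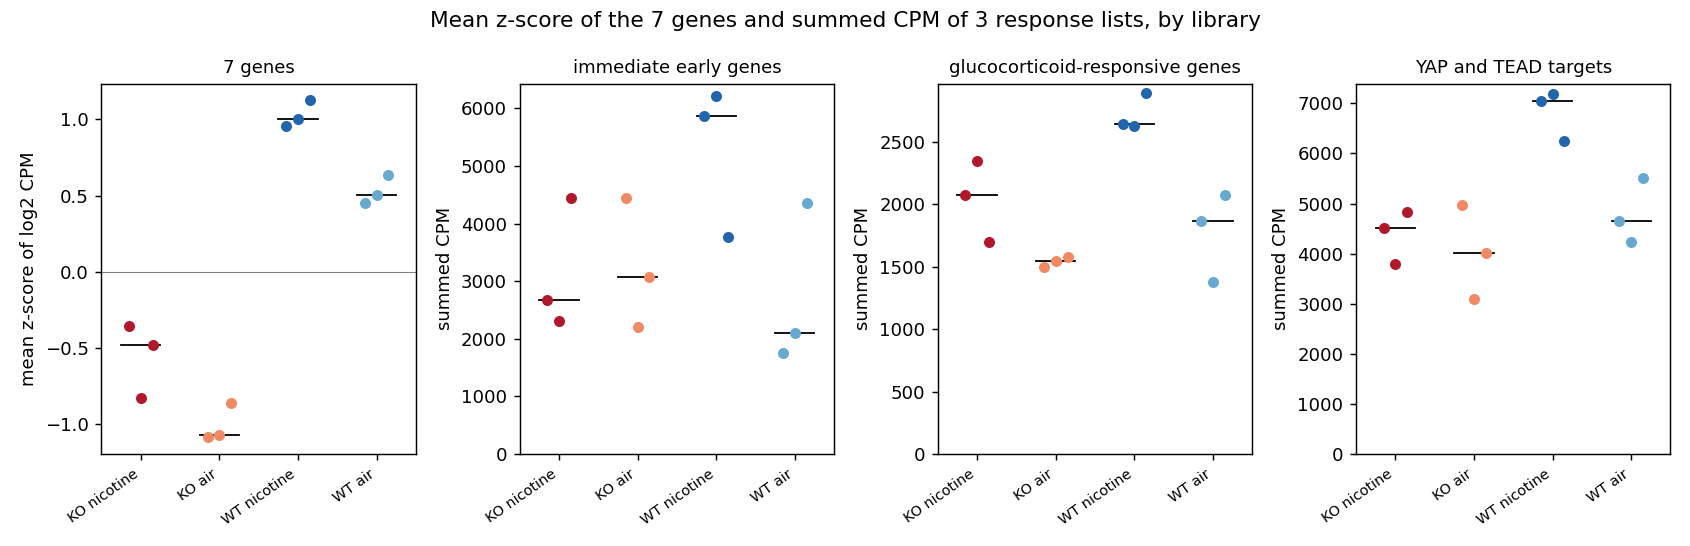
Mean z-score of log2 CPM over the 7 genes (left) and summed CPM of immediate early genes, glucocorticoid-responsive genes and YAP and TEAD targets (from 0), with 1 point per library and the group median as a line. The 7 genes order the groups KO air, KO nicotine, WT air, WT nicotine from low to high, and WT nicotine has the highest median in the other panels.

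Markers of cells that could be carried along with the aorta were uneven too. Hepatocyte markers were above 0 in KO against WT in 12 of 12 (median 2.54), summing to 82.8 to 3144 CPM in KO nicotine and 177 to 610 CPM in KO air, against 203 to 494 CPM in WT nicotine and 76.1 to 189 CPM in WT air. Mesothelial markers were above 0 in 10 of 10 (median 1.60), summing to 16.8 to 81.1 CPM in KO nicotine and 22.9 to 104 CPM in KO air, against 21.4 to 26.04 CPM in WT nicotine and 12.7 to 21.3 CPM in WT air. No marker of these 2 lists was at 0 in a whole group. Smooth muscle markers were below 0 in 12 of 14 (median -0.08), summing to 30320 to 49743 CPM in KO nicotine and 42435 to 51390 CPM in KO air, against 37285 to 42861 CPM in WT nicotine and 40821 to 61341 CPM in WT air. Adipocyte markers were above 0 in 12 of 15 (median 0.15). Their sums were 4551 to 12670 CPM in KO nicotine and 4260 to 7875 CPM in KO air, against 6897 to 8527 CPM in WT nicotine and 2263 to 7908 CPM in WT air. When the adipocyte score was added to the fit, the averaged KO against WT values of the 7 genes ran from -0.90 to -0.52. KO nicotine 3 held the 3144 CPM of hepatocyte markers, and without it the averaged values were -0.77 for Net1, -0.62 for Nedd9, -0.58 for Filip1l, -0.54 for Cttnbp2nl, -0.95 for Klhdc8a, -0.73 for Proser2 and -0.82 for Chd5. The part of mesothelial transcripts in these values was not tested.

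Filip1l and Cttnbp2nl were further below 0 in KO against WT in nicotine than in air. The medians of several marker lists were also lower in nicotine than in air. Fibroblast markers were below 0 in 12 of 12 in nicotine (median -0.31) and 1 of 12 in air (median 0.06), summing to 8345 to 10589 CPM in KO nicotine and 8273 to 11515 CPM in KO air, against 10934 to 13076 CPM in WT nicotine and 8722 to 10918 CPM in WT air. Macrophage markers were below 0 in 12 of 14 in nicotine (median -0.35) and 4 of 14 in air (median 0.45), summing to 396 to 774 CPM in KO nicotine and 358 to 561 CPM in KO air, against 568 to 771 CPM in WT nicotine and 353 to 374 CPM in WT air. Red cell markers were below 0 in 6 of 6 in nicotine (median -0.90) and 5 of 6 in air (median -0.05), with sums that overlapped between KO and WT in both exposures. Lymphocyte markers were below 0 in 8 of 9 in nicotine (median -0.31) and 0 of 9 in air (median 0.31). Their sums were low, at 16.7 to 22.9 CPM in KO nicotine and 26.2 to 42.1 CPM in KO air, against 10.4 to 42.8 CPM in WT nicotine and 14.3 to 31.6 CPM in WT air. EdgeR called no gene of these lists, no list had a marker at 0 in a whole group, and their part in the values of Filip1l and Cttnbp2nl was not tested. Medians were also lower in nicotine than in air for mesothelial (0.59 and 2.55), heart muscle (0.004 and 0.33) and adipocyte markers (0.18 and 0.24). They were higher in nicotine for smooth muscle, endothelial, brown fat, skeletal muscle, hepatocyte, and Schwann cell and neuron markers. Smooth muscle markers were below 0 with nicotine in 14 of 14 averaged over genotypes (median -0.38), where the 7 genes were above 0. In that contrast adipocyte markers were above 0 in 15 of 15 (median 0.73) and macrophage markers in 13 of 14 (median 0.47). Endothelial markers were above 0 in 13 of 14 (median 0.24) and fibroblast markers in 12 of 12 (median 0.07). Heart muscle markers were below 0 in 7 of 8 and lymphocyte markers in 7 of 9. Endothelial markers were above 0 in KO against WT in 13 of 14 averaged over exposures (median 0.14), as were 7 of 9 brown fat markers (median 0.40) and 12 of 12 tested skeletal muscle markers (median 0.62). Heart muscle markers were above 0 in 3 of 8 (median -0.08), Schwann cell and neuron markers in 7 of 11 (median 0.08) and lymphocyte markers in 7 of 9 (median 0.07). The sums of endothelial, brown fat and skeletal muscle markers overlapped between KO and WT in both exposures. The highest skeletal muscle sum, 260 CPM, was in KO nicotine 3, and the highest in WT was 66.2 CPM, in WT nicotine 12.

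The mean z-score of the 7 genes was -0.83 to -0.35 in KO nicotine and -1.09 to -0.86 in KO air, against 0.96 to 1.12 in WT nicotine and 0.45 to 0.63 in WT air. The genes whose log2 CPM over the 12 libraries was most like this profile, out of 10503 candidates, were Tnfaip6, Maml1, Rnf216, Zfp281, Csmd1, Ppp6c, Mex3c, Cpeb4, Chmp2b and Rnf19a, with Pearson r from 0.89 to 0.85. The libraries share their genotype and exposure groups, so these values describe likeness to the group order. Tnfaip6, which encodes a hyaluronan-binding protein secreted in inflammation, had r = 0.89 and averaged 3.25 ± 0.84 CPM in KO nicotine and 2.36 ± 0.50 CPM in KO air, against 12.2 ± 1.52 CPM in WT nicotine and 5.02 ± 1.49 CPM in WT air (SD, n = 3 each). Maml1, which encodes a Notch coactivator, had r = 0.88 and averaged 46.8 ± 2.94 CPM in KO nicotine and 44.2 ± 1.92 CPM in KO air, against 62.0 ± 5.76 CPM in WT nicotine and 52.5 ± 5.10 CPM in WT air. Tnfaip6 had the widest KO against WT difference of the 10, with a log2 fold change of -1.49 ± 0.21 (SE), and Rnf216 the narrowest, at -0.24 ± 0.07. The profile separates KO from WT by the choice of the 7 genes. Values below 0 among genes like it follow from that choice, and nothing is read from them.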

How the data were processed

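RNA came from thoracic aortas freed of fat and frozen, and libraries were made with SMART-Seq v4, per the labels. The authors deposited raw counts per gene symbol. HTSeq and the mouse build mm9 are named in the submitters' processing notes, and the sources used here name no aligner or annotation. The authors' deposited nicotine against air tables give log2 fold changes with standard errors.

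Counts passing filterByExpr (14621 genes) were TMM-scaled and fitted in edgeR 4.0.16 (R 4.3.3; robust quasi-likelihood, 4 group means, 8 residual degrees of freedom), with a Benjamini-Hochberg adjusted p under 0.05 as the threshold. An SE is the size of the log2 fold change divided by the root of F. Log2 CPM used a prior count of 2. Chi-square values over their degrees of freedom, for libraries of 1 group, were 8.28 to 68.6, above sampling noise. The procedure was tested on simulated counts. Alternatives were DESeq2 1.42.0, limma 3.58.1 (voom), other scaling, filters and covariates, and leaving out each library. Each covariate score was the mean log2 CPM of the genes of its list, and not their summed CPM.

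The 7 genes and all lists were chosen with earlier results of these data known. Named genes are the 7, Chrna7, their relatives, up to 4 called genes per pathway list, and the 10 genes of at least 5 CPM most correlated with the mean z-score of the 7. Bcar3, Ctgf and Rcan1 were named after their values were seen.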

Additional observations from a re-analysis of the deposited data

How the results depend on the processing

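No paired analysis was possible because library numbers are unique and no groups share one. The sign of all KO against WT values of the 7 genes held under every alternative, including each left-out library. Every alternative refitted libraries on which the genes had been chosen, so a stable sign largely follows from that choice. Nothing is read from it. Proser2 in air moved to -1.32 without KO air 2, and Net1 in nicotine to -0.37 with the glucocorticoid covariate, which was added after the data were seen. With nicotine averaged over genotypes, the values of Chd5 and Proser2, both near 0, took either sign, and Net1 passed with DESeq2 alone.

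Counts of called genes depended on the tool. KO against WT averaged over exposures, 0 genes by edgeR, became 115 with DESeq2 (27 higher, 88 lower), 12 without a filter on low counts, 6 with the adipocyte covariate and 103 with the glucocorticoid covariate (98 higher, 5 lower), and 0 to 1 without 1 library. In air, 0 became 13 with DESeq2 and 2 with only the compared groups, and 0 to 0 without 1 library. In nicotine, 1 became 87 with DESeq2, 6 with DESeq2 size factors, 7 without a filter, 6 with at least 1 CPM in 6 libraries, 9 with the adipocyte covariate, 0 with the immediate early covariate and 102 with the glucocorticoid covariate. Without 1 library it ran from 0 (KO nicotine 4 or 5) to 4 (WT nicotine 12). Nicotine averaged over genotypes, 0, became 96 with DESeq2 and 6 without a filter, and ran from 0 to 38 without 1 library, the highest without WT air 8. The cause was not tested. At these depths Klhdc8a and Proser2, with 28 to 121 counts, are the least precise.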
